A study of Homo sapiens with 6 samples.

Results

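The genes described here are 36 members of the glycolytic and hypoxia-response programmes: glucose carriers, the enzymes that turn glucose into pyruvate and lactate, the kinases that set how fast they run, the oxygen-sensing factors and enzymes, and further genes that hypoxia-inducible factors are known to switch on. They were chosen by name, and all 36 were found among the 34495 genes of the deposited count table. RNA was sequenced from K562, an established human erythroleukemia line, in 3 wild-type libraries and in 3 libraries whose labels give ARID4B knockout. The cells of both groups were grown in RPMI 1640 with serum and antibiotics under 5% CO2, and the labels list no other agent and no lowered oxygen. The study's question concerned ARID4B, a chromatin protein found with histone deacetylases, in progenitors of blood cells and their KIT-Src signalling. The labels name no clone, and the sources used here do not give the way in which ARID4B was knocked out. One label field of the knockout libraries spells the cell line differently from their cell line field, which reads K562.

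Glycolysis breaks glucose into pyruvate in the cytosol. Its first stage spends ATP to phosphorylate and split the sugar, its second stage earns ATP and NADH, and lactate dehydrogenase uses that NADH to turn pyruvate into lactate. Many steps have several enzymes made by separate genes. In low oxygen, prolyl hydroxylases of the EGLN family stop marking HIF1A and EPAS1 for destruction by the VHL ubiquitin ligase, and the stabilised factors bind DNA with ARNT and switch on glucose carriers, glycolytic enzymes and genes of survival and blood supply. HIF activity is thus set largely at the protein level, which RNA sequencing does not measure. EPAS1 is known as a regulator of erythropoietin and thereby of red cell production in the body.

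The enzyme genes that passed the test were lower in the knockout, and most oxygen-sensing and other HIF-target genes that passed it were higher. Glycolytic enzymes are themselves among the genes that HIF switches on. The groups are thus split by role and do not set HIF targets against other genes. Of the 34 members with enough counts to be tested, 7 were higher and 9 were lower in the knockout, and 18 did not pass an adjusted p of 0.05. CA9 and ADM had too few counts to be tested. The 16 genes of the glycolytic enzymes and lactate dehydrogenases held 8 of the 9 that fell, namely HK2, GPI, TPI1, GAPDH, PGAM1, ENO1, LDHA and LDHB, and none that rose in edgeR (1, ALDOC, did so at an unadjusted p under 0.05 and in DESeq2). The 11 tested genes of oxygen sensing and HIF response held 6 of the 7 that rose, namely HIF1A, EPAS1, EGLN3, NDRG1, BNIP3L and KDM3A, and 1 that fell, BNIP3. The seventh that rose was the glucose carrier SLC2A3. Under a scaling taken from the authors' own fold changes, described with their table at the end, HK2, GPI, GAPDH, PGAM1 and LDHA still fell, while ALDOA, ALDOC, HK1, PFKL and PFKM of the enzyme genes rose. The median log2 fold change was -0.27 over the enzyme genes and 0.63 over the genes of oxygen sensing and HIF response, beside 0.02 over all genes tested.

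These counts stand against a large background of change. Across all 13696 genes tested, 33.7% passed the same threshold (4619 genes), against 47.1% of the tested members. Genes that rose made up 18.3% of all genes tested and genes that fell 15.4%. The 3 knockout libraries all lay above the 3 wild-type libraries in 8 members and all below them in 9, and the ranges overlapped in 17. Over all genes tested the corresponding shares were 26.6% and 25.7%. The members were not chosen at random, so these shares are set side by side as a description.

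**Figure D1:**
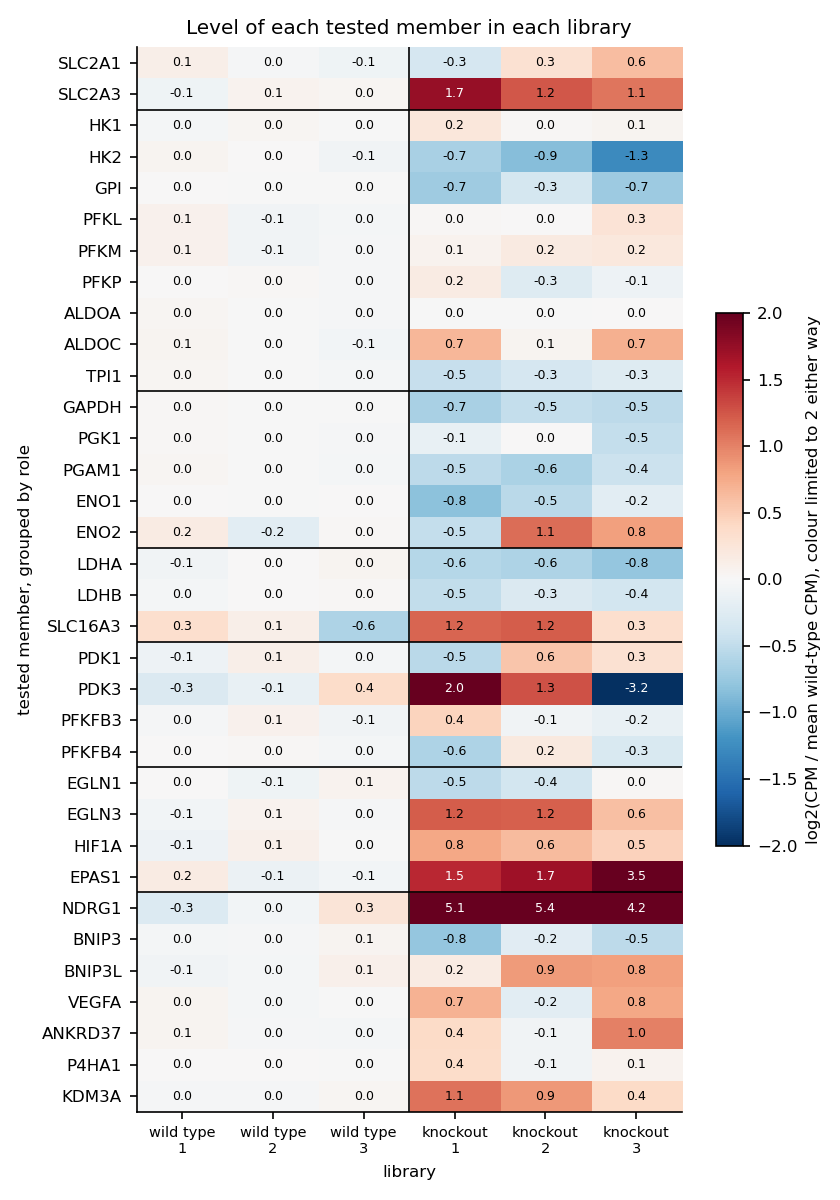
Each cell gives the log2 of a member's CPM (its count relative to the library total, defined in the next paragraph) in 1 library over the mean of the 3 wild-type libraries, for the 34 tested members grouped by role, with red for higher and blue for lower. HK2, GPI, TPI1, GAPDH, PGAM1, ENO1, LDHA, LDHB and BNIP3 are blue in all 3 knockout libraries, and NDRG1 is the reddest, with at most 1.86 CPM in wild type and at least 28.8 CPM in the knockout.

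Levels are given as CPM, the estimated count of a gene per 1e6 counts of its library after scaling. Log2 fold changes set the knockout over wild type, with a standard error (SE) and an adjusted p from edgeR's quasi-likelihood test with Benjamini-Hochberg adjustment over all genes tested. Library totals ran from 23959811 to 30346244 counts in wild type and from 21701404 to 24287385 in the knockout. ARID4B had 38.4, 41.0 and 40.9 CPM in wild-type libraries and 8.52, 7.22 and 7.68 CPM in the knockout, a 5.13-fold lower level (log2 fold change -2.36, SE 0.10, adjusted p = 0.000132). The knockout libraries differed more from each other than the wild-type ones did, their biological coefficient of variation being 32.3% beside 4.8%, and 31 of the 34 tested members had a larger coefficient of variation in the knockout, as did 81.5% of all genes tested. Summed markers of K562's erythroid character (8 genes) ranged from 16410 to 17825 CPM in wild type and from 15678 to 29520 CPM in the knockout. Summed megakaryocyte markers (8 genes) ran from 2.80 to 3.87 CPM in wild type, with 5 of the 8 at 0 in every wild-type library, and from 19.4 to 96.6 CPM in the knockout. Fibroblast markers ran from 8.65 to 9.38 CPM against 41.3 to 237 CPM, epithelial markers from 72.9 to 77.1 CPM against 42.2 to 187 CPM, and monocyte markers from 20.4 to 21.3 CPM against 14.8 to 52.0 CPM. T cell markers ran from 3.86 to 3.98 CPM against 3.99 to 13.6 CPM, and B cell markers stayed under 1 CPM in every library. Of the 3 markers each for T cells, monocytes and epithelium, only 1 reached a mean of 1 CPM in either genotype. These were CD3D, LYZ and KRT19, and none passed the test. Of the 3 fibroblast markers, the collagens COL1A1 and COL1A2 made up the sum, and DCN stayed under 1 CPM. These sums thus follow single genes and do not show a cell type. Several of these sums moved with genotype, and their part in the results was not tested. In bulk RNA, fewer cells of a type and less RNA per cell cannot be told apart.

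Glucose enters cells through facilitative carriers, and 1 of the 2 carriers in the set rose. SLC2A3 (GLUT3, a high-affinity carrier, chromosome 12, 8071824 to 8088892, hg19) had 126, 140 and 138 CPM in wild type, against 450, 318 and 282 CPM in knockout libraries. The groups did not overlap, and the level rose 2.61-fold, from a mean of 134 ± 7.41 CPM to one of 350 ± 88.0 CPM (SD, n = 3 each; adjusted p = 0.00267, log2 fold change 1.38, SE 0.17). SLC2A3 shares reads with the near-identical SLC2A14. The 2 genes summed to 137 ± 7.37 CPM in wild-type libraries and 357 ± 89.7 CPM in the knockout, and the log2 ratio of those means was 1.38 as well. SLC2A1 (GLUT1, the carrier of most dividing cells and of erythroid cells) had 345, 313 and 299 CPM in wild type, against 253, 394 and 489 CPM in knockout libraries. Its 3 knockout libraries lay on both sides of wild type, and the difference did not pass the test (log2 fold change 0.25, 95% interval -0.28 to 0.77, adjusted p = 0.422). Without knockout replicate 1 it was 0.47 with an adjusted p of 0.0174, over alternatives that ranged from 0.0174 to 0.978.

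Of the 9 tested enzyme genes of the first stage of glycolysis, 3 fell and 6 did not pass. The share called, 33.3%, was near the 33.7% of all genes tested. HK2 (chromosome 2, 75059782 to 75120481, hg19), the hexokinase that phosphorylates glucose at the mitochondrial surface and is induced in many tumours, had 121, 118 and 111 CPM in wild-type libraries and 74.5, 64.7 and 48.4 CPM in the knockout. Every knockout library was below every wild-type library, a 1.87-fold lower level (log2 fold change -0.90, SE 0.15, adjusted p = 0.00619). HK1, the housekeeping hexokinase, did not pass at 924 ± 24.4 CPM in wild type, against 995 ± 77.0 CPM in knockout libraries (95% interval of the log2 fold change -0.06 to 0.28, adjusted p = 0.284). Under the authors' scaling HK1 was at 0.35 (adjusted p = 0.0106, over alternatives from 0.0106 to 0.656). GPI, which turns glucose 6-phosphate into fructose 6-phosphate (chromosome 19, 34855645 to 34893318, hg19), ran from 503 to 512 CPM in wild type and had 309, 399 and 308 CPM in the knockout. Those ranges did not overlap either, and GPI fell 1.5-fold (log2 fold change -0.58, SE 0.11, adjusted p = 0.00861).

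The phosphofructokinases, which commit the sugar to glycolysis, showed no difference that passed the test. PFKL had 116 ± 6.29 CPM in wild-type libraries and 125 ± 13.1 CPM in the knockout (adjusted p = 0.405), PFKM 43.6 ± 2.31 and 48.5 ± 2.42 CPM (adjusted p = 0.172), and PFKP 111 ± 2.49 and 107 ± 16.1 CPM (adjusted p = 0.744, with a sign that flipped under other scalings). Their 95% intervals on the log2 scale were -0.11 to 0.33, -0.03 to 0.34 and -0.32 to 0.21 under the scaling used here. They do not bound the changes under another scaling. PFKL was 0.35 under the authors' scaling (adjusted p = 0.0247, over alternatives from 0.0247 to 0.958). PFKM passed with library totals alone (0.27, adjusted p = 0.0338) and under the authors' scaling (0.40, adjusted p = 0.00964), over alternatives from 0.00964 to 0.739. Aldolase splits the sugar, and ALDOA, the aldolase of muscle and red cells, had the narrowest gap of all: 1629, 1578 and 1571 CPM in wild type, against 1576, 1586 and 1595 CPM in knockout libraries (log2 fold change -0.01, 95% interval -0.13 to 0.11, adjusted p = 0.931). The knockout values lay inside the wild-type range. Its direction depended on the scaling, with a log2 fold change of 0.11 with library totals alone and 0.24 under the authors' scaling (adjusted p from 0.0120 to 0.964 over all alternatives). ALDOC, best known as the aldolase of brain, had 46.2, 44.3 and 42.8 CPM in wild-type libraries and 70.3, 46.1 and 72.6 CPM in the knockout, with 1 knockout library within the wild-type range (log2 fold change 0.50, adjusted p = 0.0602). It passed under 6 of 15 alternatives, over which its adjusted p ranged from 0.00313 to 0.180. TPI1, which interconverts the fragments of the split sugar (chromosome 12, 6976584 to 6980110, hg19), had 759, 735 and 721 CPM against 539, 582 and 614 CPM. It fell 1.28-fold with no overlap (log2 fold change -0.35, SE 0.07, adjusted p = 0.00906). Under the authors' scaling the call on TPI1 was lost (-0.11, adjusted p = 0.244, the highest over alternatives that went down to 1.59e-05).

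In the second stage, where ATP and NADH are earned, 3 of 5 genes fell (60.0%, beside 15.4% that fell over all genes tested). GAPDH (chromosome 12, 6643585 to 6647537, hg19), which makes the NADH, had 3448, 3355 and 3365 CPM in wild type, against 2156, 2436 and 2360 CPM in knockout libraries. The groups lay far apart relative to their spread, and the level was 1.46-fold lower (log2 fold change -0.55, SE 0.06, adjusted p = 0.00216). GAPDH is a common reference gene for normalising expression assays. PGAM1, which moves the phosphate of 3-phosphoglycerate (chromosome 10, 99186027 to 99193198, hg19), had 422, 408 and 401 CPM against 286, 265 and 304 CPM, again without overlap (1.44-fold lower, log2 fold change -0.52, SE 0.07, adjusted p = 0.00313). ENO1, the main enolase (chromosome 1, 8921059 to 8939151, hg19), had 3543, 3494 and 3519 CPM against 1995, 2430 and 3054 CPM. All 3 knockout libraries were lower, but by amounts that differed widely among them (log2 fold change -0.50, SE 0.14, adjusted p = 0.0370). The call on ENO1 was lost under 8 of 15 alternatives, among them the loss of any 1 wild-type library or of knockout replicate 2, and its adjusted p ranged from 0.00431 to 0.204. The 100 genes around ENO1 on its chromosome had median log2 differences of -0.38, -0.38 and -0.07 in the 3 knockout libraries, and with these medians as an offset the log2 fold change of ENO1 was -0.24 (adjusted p = 0.0692). PGK1, the first ATP-earning enzyme, did not pass at 581 ± 8.37 CPM in wild-type libraries and 508 ± 83.5 CPM in the knockout (adjusted p = 0.243). ENO2, the enolase of neurons, had 21.1, 16.4 and 19.3 CPM in wild type, against 13.6, 41.2 and 33.2 CPM in knockout libraries, where replicate 1 was below wild type and the others above it (adjusted p = 0.227). Without knockout replicate 1 its log2 fold change was 0.97 in place of 0.63, with an adjusted p of 0.00394, the lowest over alternatives that reached 0.554. TPI1, GAPDH, PGAM1 and ENO1 had counts that were not whole in 4 or more of the 6 libraries, since reads that fit several genes are shared out, so these genes carry some uncertainty from near-identical copies.

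Lactate dehydrogenase regenerates the NAD+ that GAPDH needs, and both of its main subunits fell. LDHA (chromosome 11, 18415936 to 18429765, hg19), the subunit that favours lactate formation, had 1103, 1163 and 1194 CPM in wild-type libraries and 779, 754 and 677 CPM in the knockout. It was 1.57-fold lower with no overlap (log2 fold change -0.65, SE 0.07, adjusted p = 0.00209). LDHB (chromosome 12, 21788275 to 21810789, hg19), the subunit that favours pyruvate, ran from 885 to 931 CPM in wild type and from 651 to 744 CPM in the knockout, a smaller but again separate decline of 1.3-fold (log2 fold change -0.38, SE 0.07, adjusted p = 0.00720). Under the authors' scaling the call on LDHB was lost (-0.14, adjusted p = 0.152, the highest over alternatives that went down to 5.12e-06). SLC16A3 (MCT4), which carries lactate out of cells, was rare, with 0.751, 0.649 and 0.389 CPM in wild type, against 1.33, 1.38 and 0.755 CPM in knockout libraries. Each knockout library was above each wild-type one, yet the difference did not pass (log2 fold change 0.94, adjusted p = 0.111).

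Together the 16 enzyme genes took 1.36% of all counts in wild type (SD 0.000574, n = 3) and 1.09%, 1.15% and 1.18% in the knockout libraries. The 13 genes of oxygen sensing and HIF response took 0.0341%, 0.0347% and 0.0357% in wild type and 0.0579%, 0.0551% and 0.0559% in the knockout. Neither pair of ranges overlapped, and the sums ran in opposite directions. The enzyme sum weighs the most abundant genes most. ENO1 went from a mean of 3519 to 2493 CPM and GAPDH from 3390 to 2318 CPM, the largest falls in CPM among the 16 genes. All 36 members together took 1.45% in wild type and 1.23%, 1.29% and 1.32% in the knockout.

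**Figure D2:**
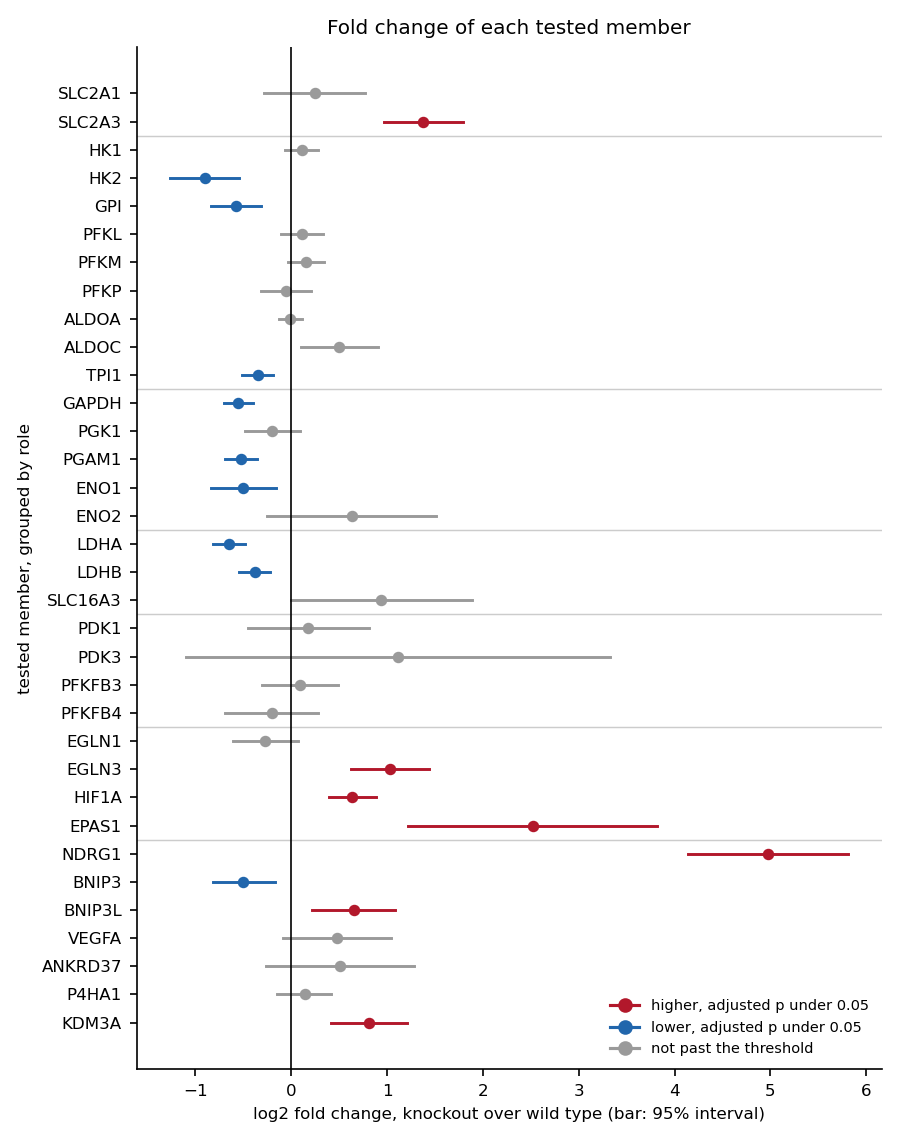
Log2 fold change of each tested member, knockout over wild type, with its 95% interval, grouped by role, with the genes that passed an adjusted p of 0.05 in colour. Enzymes of glycolysis and lactate formation that passed all sat below 0, from -0.35 for TPI1 to -0.90 for HK2, while 3 of the 4 oxygen-sensing genes sat above 0, up to 2.52 for EPAS1.

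None of the 4 regulatory kinases passed the test in edgeR, DESeq2 or limma-voom, nor did any reach an unadjusted p of 0.05 in those tools. PFKFB3 and PFKFB4 make and remove fructose 2,6-bisphosphate, an activator of phosphofructokinase, and PDK1 and PDK3 shut off pyruvate dehydrogenase, which keeps pyruvate out of the mitochondrial cycle. PFKFB3 had 28.9, 31.1 and 28.0 CPM in wild-type libraries and 39.8, 27.8 and 26.3 CPM in the knockout (adjusted p = 0.697), and PFKFB4 had 20.8, 20.9 and 20.0 CPM against 13.4, 23.7 and 16.6 CPM (adjusted p = 0.479). PDK1 had 16.6, 19.4 and 17.3 CPM against 12.2, 26.2 and 22.0 CPM (adjusted p = 0.638). In all 3 of these genes the knockout libraries lay on both sides of the wild-type range. PDK3 varied most of the tested members between knockout libraries, with 0.938, 1.03 and 1.47 CPM in wild type, against 4.53, 2.77 and 0.126 CPM in knockout libraries (coefficient of variation 89.9%, log2 fold change 1.11, 95% interval -1.10 to 3.33, adjusted p = 0.394). Leaving out 1 knockout library brought 3 of the 4 past the threshold: replicate 1 for PDK1 (adjusted p = 0.0323, over alternatives from 0.0323 to 0.866), replicate 2 for PFKFB4 (0.0379, from 0.0379 to 0.889) and replicate 3 for PDK3 (0.0159, from 0.0159 to 0.942).

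Of the oxygen-sensing genes, both HIF alpha subunits and 1 of the 2 hydroxylases rose. HIF1A (chromosome 14, 62162119 to 62214977, hg19), the alpha subunit that drives most glycolytic targets, had 40.4, 46.6 and 43.1 CPM in wild-type libraries and 74.2, 67.6 and 59.7 CPM in the knockout. The groups did not overlap, and the level was 1.55-fold higher (log2 fold change 0.63, SE 0.10, adjusted p = 0.00563). EPAS1 (HIF-2 alpha, chromosome 2, 46524541 to 46613842, hg19) had 5.82, 4.82 and 5.02 CPM in wild type, against 14.9, 16.9 and 58.2 CPM in knockout libraries. Replicate 3 stood far above the other knockout libraries, although each of these was also above wild type (mean 5.74-fold higher, log2 fold change 2.52, SE 0.55, adjusted p = 0.0141). Without knockout replicate 3 the log2 fold change of EPAS1 was 1.59 and still passed. Without any 1 of the wild-type libraries EPAS1 had adjusted p-values from 0.0611 to 0.0664, within a range over all alternatives of 3.12e-06 to 0.0664. EGLN3 (PHD3, chromosome 14, 34393421 to 34420284, hg19), a prolyl hydroxylase that is itself induced by HIF, had 19.1, 21.0 and 19.6 CPM against 46.2, 45.6 and 30.2 CPM. It rose 2.04-fold without overlap (log2 fold change 1.03, SE 0.17, adjusted p = 0.00605). EGLN1 (PHD2), the main oxygen sensor in most cells, had 42.7, 39.9 and 44.3 CPM in wild-type libraries and 29.5, 32.8 and 42.9 CPM in the knockout, where replicate 3 lay within the wild-type range. Its log2 fold change of -0.27 did not pass (95% interval -0.61 to 0.07, adjusted p = 0.193), and it did so without knockout replicate 3 (-0.45, adjusted p = 0.0131, over alternatives from 0.0131 to 0.928). The 100 genes around EGLN1 had median log2 differences of -0.18, -0.38 and -0.20 in the knockout libraries, and with these as an offset EGLN1 was at -0.02 (adjusted p = 0.928).

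Among the other HIF targets, NDRG1 (chromosome 8, 134249414 to 134309547, hg19), a stress-responsive gene of differentiation and growth arrest, changed most of all members. It had 1.28, 1.5 and 1.86 CPM in wild type, against 52.9, 63.7 and 28.8 CPM in knockout libraries. The lowest knockout library was far above the highest wild-type one, and the mean was 31.4-fold higher (log2 fold change 4.97, SE 0.35, adjusted p = 0.000572). KDM3A (chromosome 2, 86668271 to 86719839, hg19), a histone H3 lysine demethylase, had 48.2, 48.0 and 50.5 CPM against 104, 89.4 and 63.9 CPM. Its knockout libraries were spread out but all higher (1.76-fold, log2 fold change 0.81, SE 0.17, adjusted p = 0.0122), and the call was lost without any 1 of the wild-type libraries, with adjusted p-values from 0.0529 to 0.0588 and a range over all alternatives of 8.42e-05 to 0.0588.

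The mitophagy receptors BNIP3L and BNIP3 moved in opposite directions. BNIP3L (NIX, chromosome 8, 26240523 to 26270644, hg19), which clears mitochondria from maturing red cells, had 40.6, 41.5 and 45.9 CPM in wild-type libraries and 48.1, 77.4 and 75.5 CPM in the knockout (1.57-fold higher, log2 fold change 0.65, SE 0.18, adjusted p = 0.0333). Knockout replicate 1 was only just above the wild-type range. BNIP3 (chromosome 10, 133781204 to 133795435, hg19), the receptor better known for its induction by hypoxia, had 60.9, 61.6 and 65.1 CPM against 36.5, 53.2 and 43.4 CPM (1.41-fold lower, log2 fold change -0.50, SE 0.14, adjusted p = 0.0314). All 3 knockout libraries were below wild type. Both calls lay close to the threshold: that on BNIP3L was lost under 7 of 15 alternatives, with adjusted p-values from 0.00117 to 0.127, and that on BNIP3 under 8 of 15, with adjusted p-values from 0.00633 to 0.185. These included leaving out any 1 wild-type library and, for BNIP3L, knockout replicate 2 or 3, and for BNIP3, knockout replicate 3. BNIP3 had counts that were not whole in all 6 libraries.

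The remaining HIF targets did not pass or could not be tested. VEGFA, the main growth factor of blood vessels, had 61.7, 58.3 and 59.1 CPM in wild type, against 96.2, 51.4 and 102 CPM in knockout libraries, where replicate 2 was below wild type and the others far above (log2 fold change 0.48, adjusted p = 0.166). Without knockout replicate 2 it was 0.72 with an adjusted p of 0.00270, the lowest over alternatives that reached 0.384. ANKRD37, a small hypoxia-induced gene, had 1.84, 1.74 and 1.73 CPM against 2.31, 1.69 and 3.57 CPM (adjusted p = 0.264). P4HA1, a collagen prolyl hydroxylase, had 34.4 ± 0.166 CPM and 37.8 ± 5.93 CPM (adjusted p = 0.417). CA9, a carbonic anhydrase often used as a marker of hypoxic tumours, had no count in wild type and 1 count in 1 knockout library. ADM (adrenomedullin), a vasodilating peptide, had no count in wild type and 9, 5 and 5 counts in the knockout, too few for the test. With the wild-type group taken at a floor of 3 counts in all, ADM was at least 6.89-fold higher in the knockout.

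**Figure D3:**
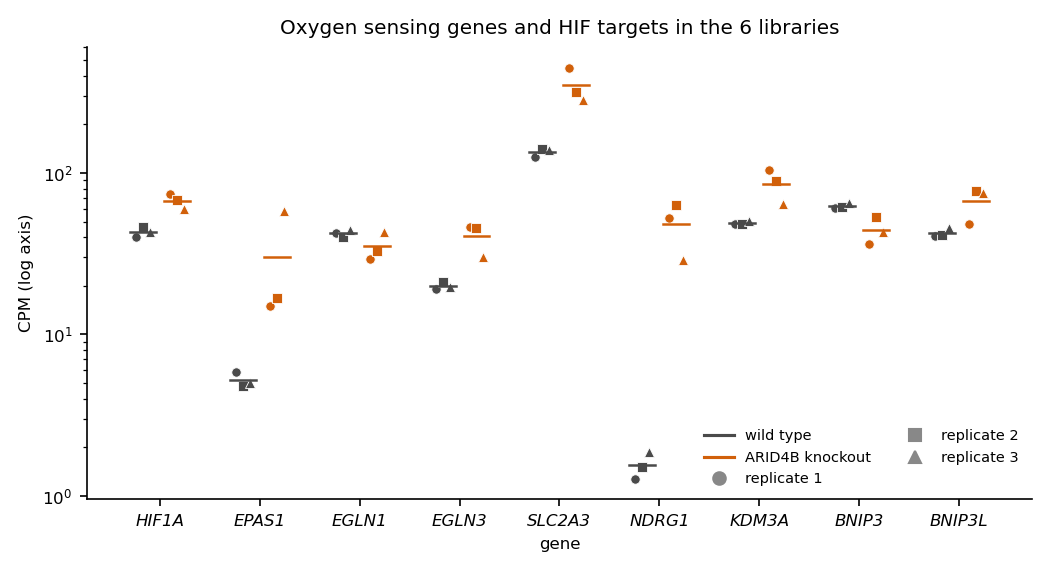
CPM on a logarithmic axis of 9 genes, the oxygen-sensing genes, SLC2A3 and the HIF targets that passed the test, in each of 3 wild-type and 3 knockout libraries, with a bar at the mean of each group. HIF1A, EPAS1, EGLN3, SLC2A3, NDRG1, KDM3A and BNIP3L lay higher in every knockout library than in any wild-type library, BNIP3 lay lower, and EGLN1 overlapped.

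For pairs of related members (enzymes of the same step, glucose carriers, mitophagy receptors, hydroxylases and HIF alpha subunits), the balance within each library was compared as a log2 ratio, which does not depend on the scaling between libraries. Of 12 such pairs, 7 had a higher ratio in all 3 knockout libraries than in any wild-type one, 1 had a lower ratio in all, and 4 overlapped. Among all single genes tested, 26.6% lay above wild type and 25.7% below it in every knockout library. The share over other pairs of genes was not computed, so the count describes these pairs only. With 3 libraries a side the exact two-sided permutation test cannot go below p = 0.1, and the 8 separated pairs had that value (adjusted p = 0.15 over the 12). The ratio of HK2 to HK1 went from -2.90, -3.0 and -3.05 to -3.86, -3.86 and -4.31, a shift of -1.03 toward the housekeeping hexokinase. The ratio of SLC2A3 to SLC2A1 went from -1.45, -1.17 and -1.12 to 0.83, -0.31 and -0.79, so that counts of SLC2A3 exceeded those of SLC2A1 in 1 knockout library. For ENO2 to ENO1 the shift was 1.01, for ALDOC to ALDOA 0.48, for LDHB to LDHA 0.27, for BNIP3L to BNIP3 1.13, for EGLN3 to EGLN1 1.29 and for EPAS1 to HIF1A 1.60. In EPAS1 to HIF1A the wild-type ratios were -2.79, -3.27 and -3.10 and the knockout ratios -2.32, -2.0 and -0.04, with replicate 3 again apart. The phosphofructokinase, PFKFB and PDK pairs overlapped between the groups (p from 0.4 to 1.0). A ratio shows that a pair changed unequally and not which member changed.

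**Figure D4:**
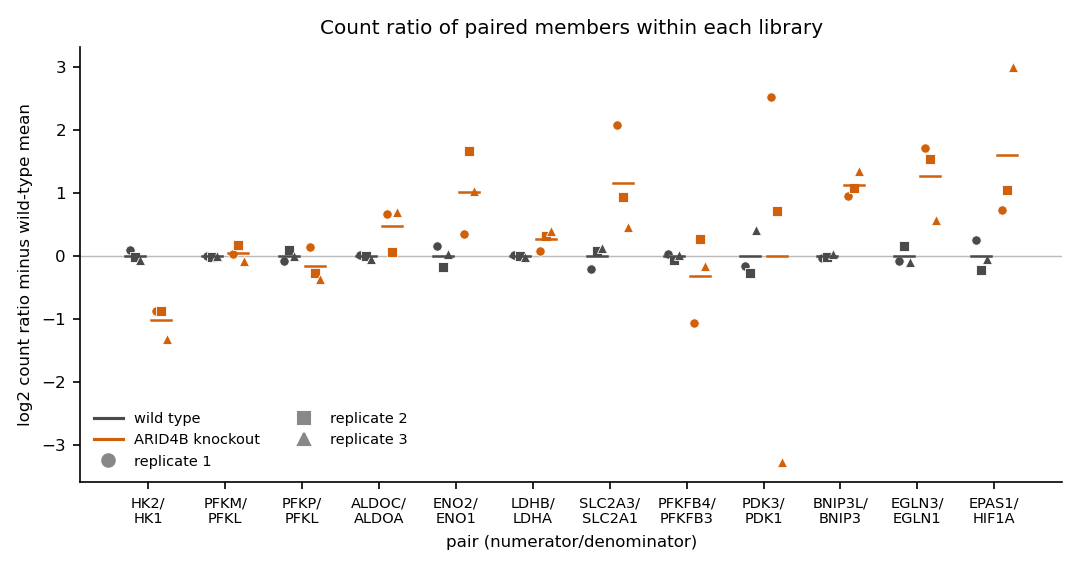
Log2 ratio of counts of 2 genes of a pair within each library, minus the wild-type mean of that pair, for 3 wild-type and 3 knockout libraries, with a bar at each group's mean. The HK2 to HK1 ratio lay lower in all knockout libraries, 7 pairs lay higher in all of them, and the PFKM to PFKL, PFKP to PFKL, PFKFB4 to PFKFB3 and PDK3 to PDK1 ratios overlapped.

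Levels between genes were compared per kilobase of the principal transcript (CPM per kb). In wild type the order of the mean levels was led by GAPDH at 2510 CPM per kb, then ENO1 at 1710, ALDOA at 1030, LDHB at 643, and LDHA and TPI1 both at 600. In the knockout GAPDH led at 1720 CPM per kb, ENO1 followed at 1210, ALDOA at 1020, LDHB at 493, TPI1 at 470 and LDHA at 383. TPI1 thus stood above LDHA in the knockout, where the pair had been level in wild type, and the ranges of ENO1 and ALDOA, apart in wild type, overlapped in the knockout. At the low end, HK2 went from 20.2 to 10.8 CPM per kb beside HK1 at 256 and 276, and ENO2 stood at 7.42 and 11.5. SLC2A3 went from 34.3 to 89.4 CPM per kb, beside SLC2A1 at 86.9 and 103. HIF1A stood at 11.1 and 17.1 CPM per kb and EPAS1 at 1.01 and 5.81, the lowest of the levels listed here.

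HIF binds the hypoxia response element, whose core is ACGTG or GCGTG, and MYC and other E-box factors bind CACGTG, so the sequences just before the starts of genes that fell and rose are shown to let the letters be compared. RefSeq gives 60 start windows (GRCh38.p14) for 32 of the 36 members, and the 250 bases before each start were searched on both strands. CACGTG reads the same on both strands and contains ACGTG, so each CACGTG also counts as a core. A core was found in 37 of the 60 windows (61.7%), against 15172 of 35116 windows of all genes (43.2%), and CACGTG in 8 of 60 (13.3%) against 2228 of 35116 (6.34%). Among genes that fell, 7 of 9 held a core and 4 held CACGTG, namely HK2, GAPDH, LDHA and BNIP3, while PGAM1 and LDHB held no core. Among the 4 genes that rose and have a window, HIF1A, EPAS1 and KDM3A held a core and none held CACGTG. Among the 17 tested genes that did not pass and have a window, 16 held a core and 4 held CACGTG. These counts are by gene, and genes with more windows have more places for a match. Counted by window, as the shares over all genes are, 9 of 12 held a core for genes that fell. For genes that rose 4 of 6 windows did, and for those that did not pass 22 of 40. CACGTG was in 4 of 12, 0 of 6 and 4 of 40 of these windows. These matches describe letters in a window and not sites bound by a factor. Capitals below mark each match, and CACGT or CACGC is a core read on the other strand. The windows are the 250 bases before the start, written 5′ to 3′ on the strand of the gene. HK2 (chr2:74834920-74835169, plus strand, 1 of its 2 start windows), LDHA (chr11:18394313-18394562, plus strand, 1 of its 2 start windows) and GAPDH (chr12:6535014-6535263, plus strand) fell. EPAS1 (chr2:46297157-46297406, plus strand), KDM3A (chr2:86441211-86441460, plus strand, 1 of its 2 start windows) and EGLN3 (chr14:33951075-33951324, minus strand) rose.
HK2: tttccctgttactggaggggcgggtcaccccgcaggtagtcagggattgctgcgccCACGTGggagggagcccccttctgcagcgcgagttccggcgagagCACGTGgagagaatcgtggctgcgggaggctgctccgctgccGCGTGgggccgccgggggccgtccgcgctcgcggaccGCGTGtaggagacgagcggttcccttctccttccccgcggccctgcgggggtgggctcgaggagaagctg
LDHA: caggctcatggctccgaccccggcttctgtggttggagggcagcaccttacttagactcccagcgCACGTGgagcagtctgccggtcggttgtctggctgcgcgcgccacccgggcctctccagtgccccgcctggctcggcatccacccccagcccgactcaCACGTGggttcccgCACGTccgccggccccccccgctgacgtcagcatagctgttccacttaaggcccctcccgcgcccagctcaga
GAPDH: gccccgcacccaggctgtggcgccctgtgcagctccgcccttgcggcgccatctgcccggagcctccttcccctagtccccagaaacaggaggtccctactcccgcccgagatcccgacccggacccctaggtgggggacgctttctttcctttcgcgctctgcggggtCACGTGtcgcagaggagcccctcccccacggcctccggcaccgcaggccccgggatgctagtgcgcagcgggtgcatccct
EPAS1: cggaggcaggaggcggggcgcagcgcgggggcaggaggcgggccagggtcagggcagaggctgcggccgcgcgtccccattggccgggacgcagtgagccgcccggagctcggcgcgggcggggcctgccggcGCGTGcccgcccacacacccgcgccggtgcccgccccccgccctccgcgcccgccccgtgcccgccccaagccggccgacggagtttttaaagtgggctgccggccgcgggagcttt
KDM3A: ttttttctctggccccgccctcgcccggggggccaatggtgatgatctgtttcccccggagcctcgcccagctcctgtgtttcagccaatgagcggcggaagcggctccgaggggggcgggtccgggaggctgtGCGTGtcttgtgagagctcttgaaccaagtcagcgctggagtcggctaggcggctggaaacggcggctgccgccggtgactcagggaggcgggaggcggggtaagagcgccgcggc
EGLN3: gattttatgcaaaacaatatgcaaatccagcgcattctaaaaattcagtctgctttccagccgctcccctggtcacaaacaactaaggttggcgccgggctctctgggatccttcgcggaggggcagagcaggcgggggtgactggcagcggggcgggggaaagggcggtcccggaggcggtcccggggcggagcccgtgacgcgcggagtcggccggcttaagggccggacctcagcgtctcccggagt
The genes that fell are shown here by windows that hold CACGTG, and the other start window of HK2 and that of LDHA held it 0 times. In the windows shown, HK2 and LDHA each held CACGTG at 2 places, 194 and 149 bases before the start in HK2 and 185 and 87 bases before it in LDHA, and GAPDH held it once, 81 bases before. The windows of EPAS1 and KDM3A each held a single GCGTG, 117 and 116 bases before the start, and that of EGLN3 held none of these letters.

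Other genes of the same pathways give the surroundings of the members. Of 8 tested genes in the list of other glycolytic enzymes and regulators, 1 rose and 1 fell. PFKFB2, a further maker of fructose 2,6-bisphosphate, rose from 29.5 ± 0.762 to 61.8 ± 14.4 CPM (adjusted p = 0.00444), by 1.06 on the log2 scale (SE 0.16), and ADPGK, an ADP-dependent glucokinase, fell from 62.8 to 53.3 CPM (adjusted p = 0.0467). PKM, the pyruvate kinase that closes glycolysis, had 536 CPM in wild-type libraries and 488 CPM in the knockout and did not pass (adjusted p = 0.0928). Of 8 other tested sugar and lactate carriers, 4 rose and 2 fell. SLC2A12 and SLC2A4, both glucose carriers, rose from 0.351 to 7.74 CPM and from 1.95 to 5.27 CPM, while SLC2A13, a carrier of myo-inositol, fell from 8.09 to 3.40 CPM. SLC16A1 (MCT1), the lactate carrier of red cells, fell from 268 ± 3.37 to 199 ± 29.3 CPM (adjusted p = 0.0252, log2 fold change -0.43).

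At the entry of pyruvate into mitochondria, 2 of 14 genes rose and 6 fell (57.1% called, beside 33.7% of all genes tested). Both that rose were pyruvate dehydrogenase kinases. PDK4 had no count in wild type and 137, 35 and 61 counts in the knockout (adjusted p = 0.00487), which is at least 83.2-fold higher if the wild-type group is taken at a floor of 3 counts in all, and PDK2 rose from 0.423 to 7.46 ± 4.37 CPM (adjusted p = 0.00327). PC, which turns pyruvate into oxaloacetate, fell from 36.2 ± 2.78 to 18.1 ± 3.58 CPM (adjusted p = 0.00484, log2 fold change -1.0), and MPC2, a subunit of the mitochondrial pyruvate carrier, fell from 146 ± 2.20 to 88.5 ± 28.3 CPM, just under the threshold before rounding. Of the 7 genes of the pentose phosphate pathway, which branches off glucose 6-phosphate, none rose and 3 fell (42.9% called). At an unadjusted p under 0.05, 0 rose in edgeR, DESeq2 or limma-voom. RPIA and TKT, enzymes of its sugar-rearranging branch, fell from 82.3 to 37.0 CPM (adjusted p = 0.00267) and from 446 to 327 CPM (adjusted p = 0.00367).

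Of 13 further tested genes of oxygen sensing and HIF regulation, none rose and 3 fell, with 1 (HIF1AN) higher at an unadjusted p under 0.05 in edgeR and 0 in DESeq2 or limma-voom. The share called was 23.1%, beside 33.7% of all genes tested. VHL, which targets hydroxylated HIF alpha for destruction, fell from 126 ± 4.05 to 89.9 ± 6.51 CPM (adjusted p = 0.00464, log2 fold change -0.49), and SIAH2, a ubiquitin ligase for EGLN proteins, fell from 57.3 to 28.3 CPM (adjusted p = 0.00492). Of 25 further tested HIF targets, 7 rose and 5 fell (48.0% called), and their log2 fold changes had a median of 0.20. FLT1, a VEGF receptor, rose from 0.149 to 7.14 CPM (adjusted p = 0.00196). AK4, an adenylate kinase, fell from 49.8 to 31.9 CPM (adjusted p = 0.0161), as did TFRC, the transferrin receptor, from 1046 to 718 ± 181 CPM (adjusted p = 0.0488). The further HIF targets thus held calls in both directions, as the member list did.

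The authors' deposited table of changed genes lists 3153 genes, none with a log2 fold change smaller than 0.59 in size, and 7 of the members are among them. The authors' deposited table gives log2 fold changes of -0.66 for HK2, 1.62 for SLC2A3, 5.12 for NDRG1, 1.26 for EGLN3, 0.89 for HIF1A, 2.49 for EPAS1 and 1.04 for KDM3A. Of these 7, 5 have a false discovery rate under 0.05 in the authors' deposited table, while EPAS1 has 0.209 and KDM3A 0.081. Its values lay above those computed here by a median of 0.24 (log2) over 1273 genes. With all genes shifted by that amount, 5 of the members that fell still did (HK2, GPI, GAPDH, PGAM1 and LDHA), 4 no longer passed (TPI1, ENO1, LDHB and BNIP3), and 13 members were higher. Of all genes called, 54.4% were higher under the scaling used here, 87.2% under the authors' scaling, 70.9% when only library totals were used and 67.0% when upper quartile factors were. The fall of TPI1 and LDHB, lost under no other alternative, therefore holds relative to the scaling of all genes used here. With the scaling used here the calls on ENO1 and BNIP3 were also lost without any 1 wild-type library. Adjusted p-values were then 0.103 to 0.107 for ENO1 and 0.0879 to 0.108 for BNIP3. The log2 fold changes barely moved, at -0.52 to -0.51 for ENO1 and -0.53 to -0.48 for BNIP3. The share of all genes called also dropped then, from 33.7% to between 14.6% and 16.4%, so the loss was not particular to these genes. HK2, GPI, GAPDH, PGAM1 and LDHA were lower, and SLC2A3, NDRG1, EGLN3 and HIF1A higher, past the threshold under all 15 alternatives. GPI passed narrowly in some, with an adjusted p of 0.0493 under the authors' scaling (-0.34) and 0.0423 to 0.0432 without 1 wild-type library.

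**Figure D5:**
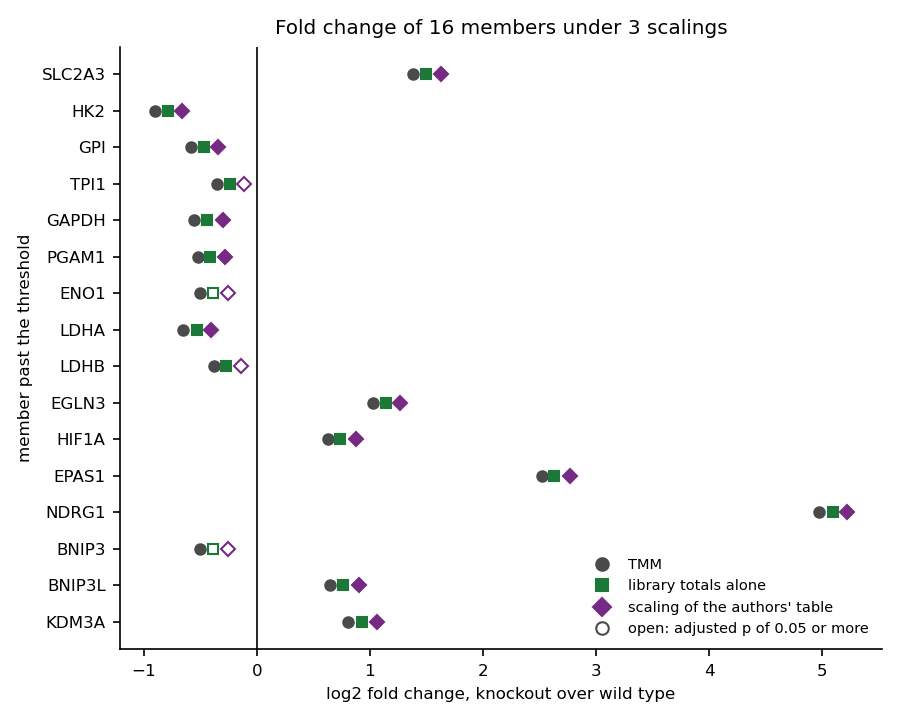
Log2 fold change, knockout over wild type, of the 16 members that passed the test under 3 scalings (the one used here, TMM; library totals alone; the authors' scaling), with open symbols where the adjusted p was 0.05 or more. Each gene moved up from TMM to the authors' scaling by 0.24, which took TPI1 from -0.35 to -0.11 and left HK2 at -0.66 and LDHA at -0.40.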

How the data were processed

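The authors deposited estimated counts per gene and library, and the submitters' processing notes name STAR 2.4, RSEM 1.2.14 and the builds hg19 and GRCh37, with no role given. Between 6.90% and 11.69% of a library's values were not whole, and all were rounded to whole numbers. The labels' protocols describe a stranded paired-end mRNA kit; the sources used here do not say if counting was by strand, and overlapping antisense genes may share reads. The labels do not say whether replicates were separate cultures or clones, so p-values measure the spread between libraries only. The authors' deposited table also holds log2 fold changes and p-values, including false discovery rates, for the genes they listed.

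Genes were filtered with edgeR's filterByExpr (minimum count 10), scaled by TMM and tested with glmQLFit and glmQLFTest (edgeR 4.0.16, R 4.3.3), with Benjamini-Hochberg adjustment over all genes and a threshold of 0.05. Alternatives were DESeq2 1.42.0, limma 3.58.1 (voom, with and without a weight per genotype), library totals, upper quartile factors, no filter, an offset from the 100 neighbouring genes, a replicate block, each library left out, and, chosen after seeing the data, the authors' scaling. The fit was also run on simulated counts that gave each gene the same spread in both genotypes. That run cannot show how the fit behaves under the unequal spread of these libraries. Same-numbered libraries did not deviate together (correlations of 0.0121, 0.018 and 0.00996), so the numbers were not used as pairs. Ratios used a prior count of 0.5 and an exact permutation test (SciPy 1.17.1, Python 3.11.15). Transcript lengths came from GENCODE 29 and start windows from RefSeq (GRCh38.p14). The members and lists were chosen with earlier results of these data known. All members are named; from each of the 6 other lists, up to 2 genes each way were named by the size of their change among those past the threshold with at least 1 CPM. 1 gene that this rule names is not reported here. PKM was named outside that rule.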

Additional observations from a re-analysis of the deposited data

How the results depend on the processing

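Over 15 alternatives and 34 tested members, 447 of 510 results kept their direction and side of the threshold, 31 lost a call, 18 gained one and 14 changed sign. Of the 16 called members, 9 passed in every alternative, 5 lost the call without 1 of the wild-type libraries (ENO1, BNIP3, BNIP3L, EPAS1 and KDM3A), and 5 lost it under a setting that kept all libraries. Leaving out 1 library gave 4 to 10 members higher and 7 to 9 lower, and 1156 to 2921 genes higher and 941 to 2548 lower over all genes. The lowest counts came without a wild-type library, and the count of 4 members did so without any 1 of the 3. With library totals alone 1283 genes were lower, and the median of all genes shifted by 0.113 (log2) there, by 0.0856 with upper quartile factors and by 0.24 under the authors' scaling. The authors' scaling gave 4410 genes higher and 645 lower, and 13 members higher and 5 lower, as its construction raises every fold change. With the replicate block, 7 members were higher and 9 lower, as without it, and 1872 genes were higher and 1577 lower, so the block changed no call on a member. Signs changed in results that had not passed the test, and the cause was not tested: HK1 was -0.03 and P4HA1 -0.03 with the neighbourhood offset. PFKP was 0.06 with library totals, 0.03 with upper quartile factors, -0.18 to 0.03 with 1 library left out and 0.19 under the authors' scaling. ALDOA was 0.11 with library totals, 0.08 with upper quartile factors, 0.11 with the neighbourhood offset and 0.24 under the authors' scaling. PGK1 was 0.05 and PFKFB4 0.04 under the authors' scaling, and with 1 library left out PDK1 ran from -0.06 to 0.44 and PFKFB3 was lowest at -0.12. When 1 library was left out, the shift of the log2 ratio ran from -0.01 to 0.11 for PFKM to PFKL, from -0.61 to 0.06 for PFKFB4 to PFKFB3, and from -1.27 to 1.63 for PDK3 to PDK1, which was 0.24 with a prior count of 5. Depth limits CA9 and ADM, which had at most 9 counts in a library.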

Other observations

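BHLHE40, a transcription factor known as a hypoxia target, was singled out after its values were seen. It had 27.6, 25.1 and 25.7 CPM in wild type, against 163, 113 and 194 CPM in knockout libraries, with no overlap (log2 fold change 2.58, SE 0.20, adjusted p = 0.000727 in edgeR's quasi-likelihood test). PKLR, the pyruvate kinase of liver and red cells, had 200 CPM in wild type, against 85.3 ± 65.0 CPM in the knockout, and did not pass (log2 fold change -1.23, adjusted p = 0.0852). HMOX1, the inducible haem oxygenase, was listed at 0 in all 6 libraries.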
